A study of Rattus norvegicus with 6 samples.

Results

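The 10 genes described here are Ass1, Asl, Arg2, Oat, Gatm, Odc1, Srm, Sat1, Ddah1 and Ddah2. They encode enzymes that make arginine, break it down, or act in creatine and polyamine metabolism and in the clearance of methylarginines. They were chosen by name, with earlier results of these data known. Every probe set whose only gene symbol in the platform annotation is one of these was taken. This gave 12 probe sets for the 10 genes, of 20826 probe sets with 1 symbol for 14217 genes. The data are kidney RNA levels of 3 male Dahl salt-sensitive rats (Dahl S, a strain prone to hypertension on salt) and 3 male Lewis rats, 1 array per rat. Both strains ate the same high-salt food, with 8% NaCl, from 5 weeks of age and for 8 weeks, so a difference between them holds inheritance and the response to salt together. No rats on a low-salt diet were analysed here. The labels call the arrays of a strain separate rats. Only RNA was measured, so that the values do not give enzyme activity or the rate of a pathway.

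In the kidney, the proximal tubule takes up citrulline from the blood and turns it into arginine with argininosuccinate synthase (Ass1) and argininosuccinate lyase (Asl), which makes the organ a main source of circulating arginine. Arginine has several fates there: arginase splits it into urea and ornithine, glycine amidinotransferase (Gatm) uses it for the committed step of creatine synthesis, and nitric oxide synthases turn it into nitric oxide. Ornithine is passed on to glutamate and proline by ornithine aminotransferase (Oat), or to the polyamines by ornithine decarboxylase (Odc1). Some of the methylated arginines released from proteins inhibit nitric oxide synthase, and the dimethylarginine dimethylaminohydrolases (Ddah1 and Ddah2) clear these.

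Levels are given as normalized signals: the deposited intensities of all arrays were brought to 1 common distribution, and changes are therefore relative to the typical probe set. Strain differences are Dahl S minus Lewis on the log2(signal + 16) scale, tested with limma over 15797 probe sets, with a threshold of 0.05 on the adjusted p. Before normalization the median signal of an array lay between 39.0 and 70.0 in Lewis and between 63.6 and 81.5 in Dahl S, and the median strain difference of the deposited values was 0.41 (log2). Poly-A control transcripts had a median normalized log2 value of 6.58 to 6.94 on the Lewis arrays and 6.98 to 7.50 on the Dahl S arrays; the part of RNA input in the results below was not tested. The ratio of the 3′ to the 5′ actin control, a sign of RNA integrity, ran from 1.99 to 2.51 in Lewis and from 2.20 to 2.33 in Dahl S, so that the strains overlapped. Markers of kidney segments were present, and those of liver and skeletal muscle (4 genes each) all lay too low to be tested.

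Relative to the typical probe set, salt-fed Dahl S kidneys held less RNA for arginase 2 (Arg2), Gatm, Ddah1, Oat and Ass1 than Lewis kidneys, and more for Odc1. Arg2 was 1.62-fold lower, Gatm 1.21-fold lower, and Ddah1, Oat and Ass1 between 1.12-fold and 1.15-fold lower. Ddah1, Oat and Ass1 lost their calls without a filter and without a variance trend. In the deposited values their differences were positive (0.10, 0.067 and 0.016), and no member passed. Odc1 was 1.39-fold higher. Differences for Asl, Srm, Sat1 and Ddah2 did not pass the test. Of the 11 member probe sets tested, all of them above the filter on low values on each of the 6 arrays, 1 was called higher and 5 lower. Over all probe sets tested, 8.50% were called higher and 7.75% lower (16.2% in either direction). The median difference was -0.17 over the member probe sets and 0.00 over all. The ranges of the strains did not overlap for 6 of the 11, against 34.4% of all probe sets. As the members were chosen with earlier results known, these counts and the median describe the list and do not test it. The number called lower was 3 without Lewis array 2 and 2 without any 1 of Dahl S arrays 1, 2 and 3.

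**Figure D1:**
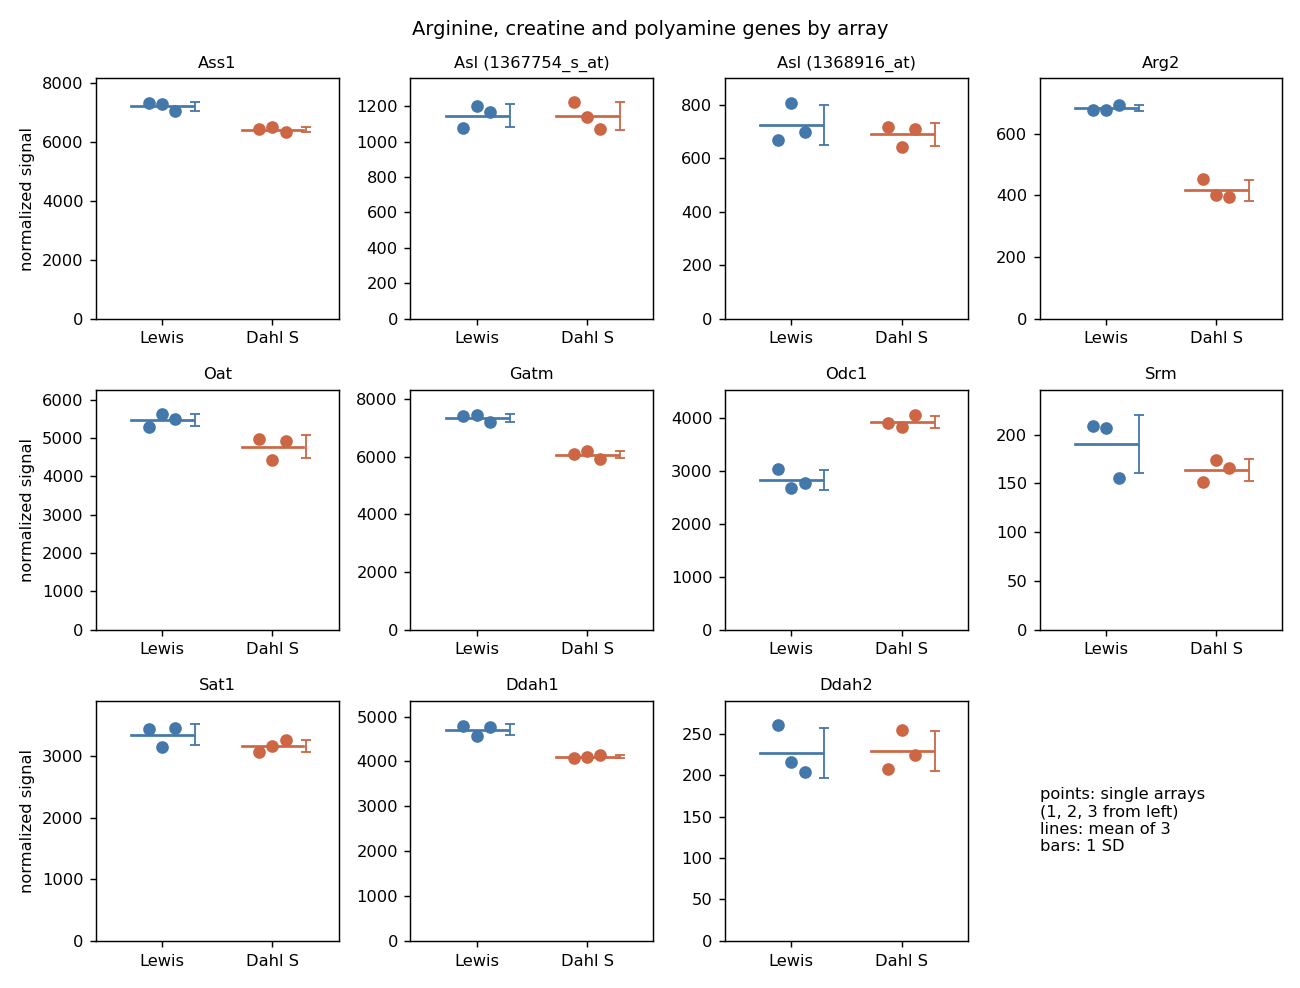
Normalized signal (linear axis from 0) of each tested member probe set on each array, with Lewis on the left and Dahl S on the right of each panel; points are single arrays, lines the mean of 3 and bars 1 SD. The strains separate fully for Ass1, Arg2, Oat, Gatm, Odc1 and Ddah1 and overlap in the other panels.

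For arginine synthesis, RNA was measured for Ass1 and Asl, whose enzymes carry out consecutive steps. Ass1, which joins citrulline and aspartate, had normalized signals of 7320, 7292 and 7041 on Lewis arrays 1, 2 and 3, and of 6433, 6497 and 6343 on Dahl S arrays 1, 2 and 3. All Dahl S values lay below all Lewis values, by a small margin. The means were 7218 ± 153 and 6424 ± 77.3 (SD, n = 3 each), a difference of -0.17 (SE 0.05, limma adjusted p = 0.025). The call did not survive leaving out Lewis array 2 (-0.16) or any of Dahl S arrays 1 (-0.17), 2 (-0.18) and 3 (-0.16).

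Asl, which releases arginine from argininosuccinate, was carried by a pair of probe sets. The dimmer probe set gave 668, 809 and 697 in Lewis and 717, 641 and 709 in Dahl S. These ranges overlapped, and the difference was -0.07 (SE 0.09, adjusted p = 0.66, 95% confidence interval -0.26 to 0.13). The brighter probe set gave 1074, 1200 and 1166 in Lewis and 1225, 1137 and 1070 in Dahl S, with an interval of -0.17 to 0.16. The annotation names the brighter one Asl, but the accession it lists is that of Hnrnpab, an RNA-binding protein gene, in RefSeq, so that its identity is uncertain; of 7 member probe sets whose accession was found there, the other 6 had the gene named. Neither probe set of Asl passed the test, and their intervals leave out a difference of the size seen for Arg2.

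For arginine breakdown, RNA was measured for Arg2, the mitochondrial arginase of the kidney, and Oat, which acts on the ornithine that arginase makes. Arg2 had signals of 677, 676 and 693 on Lewis arrays 1, 2 and 3, with a coefficient of variation of 1.39%. The Dahl S arrays gave 454, 399 and 394. The highest Dahl S value was well below the lowest Lewis value, and of the members Arg2 had the largest difference (-0.70, SE 0.08, adjusted p = 1.2e-04), larger in size than 96.0% of all probe sets tested. It passed with any 1 array left out (-0.76 to -0.66). Before any scaling the strains overlapped, with deposited signals of 401, 801 and 621 in Lewis and 526, 517 and 421 in Dahl S.

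Oat gave 5290, 5618 and 5495 in Lewis and 4982, 4420 and 4930 in Dahl S, where array 2 was the lowest of all 6. The ranges did not overlap, and the difference was -0.20 (SE 0.06, adjusted p = 0.038). That call rested on the full set of arrays: it held only without Lewis array 1, and the difference ran from -0.23 to -0.14 with any 1 array left out. As Arg2 and Oat sit on the same array, the ratio of their deposited signals is unchanged when an array is multiplied by a constant, but not by quantile normalization. The Arg2 to Oat ratio was 0.110, 0.117 and 0.124 in Lewis and 0.0958, 0.0992 and 0.0837 in Dahl S, 1.26-fold lower in Dahl S (-0.33 on the log2 scale, and -0.50 from the quantile-normalized values).

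Creatine synthesis begins with Gatm, a mitochondrial enzyme that is abundant in the proximal tubule and makes guanidinoacetate from arginine and glycine. Its bright probe set gave 7407, 7445 and 7193 in Lewis and 6082, 6179 and 5923 in Dahl S. The strains were clearly apart, with means of 7348 ± 136 and 6061 ± 129 (SD, n = 3 each). The difference was -0.28 (SE 0.05, adjusted p = 0.0014), and it passed with any 1 array left out (-0.30 to -0.26). A second probe set of Gatm was dim and was not tested; its signals were 4.36, 45.7 and 55.7 in Lewis and 23.2, 31.4 and 30.1 in Dahl S, with full overlap.

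Polyamine synthesis starts with Odc1, the enzyme that makes putrescine from ornithine and is known for a short half-life and for induction by growth signals. Odc1 gave signals of 3037, 2672 and 2774 on Lewis arrays 1, 2 and 3, and of 3905, 3822 and 4054 on Dahl S arrays 1, 2 and 3. Every Dahl S value exceeded every Lewis value, and it was the single member called higher in Dahl S (0.47, SE 0.06, adjusted p = 2.3e-04). It passed with any 1 array left out (0.44 to 0.51), and the size of its difference exceeded that of 90.7% of probe sets. The deposited signals were also apart before any scaling, at 1932, 3312 and 2520 in Lewis and 4329, 4550 and 4161 in Dahl S, although the fit of these unscaled values did not pass (0.78, adjusted p = 0.13; adjusted p from 2.4e-05 to 0.13 over all alternatives).

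The steps after Odc1 gave no call. Srm, spermidine synthase, had signals of 209, 207 and 156 in Lewis and 152, 174 and 166 in Dahl S. Lewis array 3 lay apart from the other Lewis arrays and inside the Dahl S range, and the difference was -0.19 (SE 0.12, adjusted p = 0.33, interval -0.46 to 0.08). Sat1, which acetylates spermidine and spermine for breakdown and export, gave 3442, 3148 and 3457 in Lewis and 3065, 3163 and 3269 in Dahl S. The ranges overlapped, with a difference of -0.08 (SE 0.06, adjusted p = 0.40, interval -0.21 to 0.05).

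The distance between Odc1 and Arg2 can be given from a single array, while the direction of each gene still needs a scaling. The ratio of deposited signals, Odc1 to Arg2, was 4.81, 4.14 and 4.06 in Lewis and 8.22, 8.80 and 9.88 in Dahl S. It was 2.07-fold higher in Dahl S, without overlap, and its log2 difference ran from 0.98 to 1.13 with any 1 array left out. The quantile-normalized values gave 1.17. The pairs of genes whose ratios are given were chosen after their values were seen, so that the ratios are a description with no test.

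To show the start regions of the member that rose and of the tested member that fell most among those in the promoter table, the Odc1 and Gatm sequences follow, 5′ to 3′ on the gene's strand, from 250 bases before to 50 after the annotated start. The Odc1 window is chr6:46058415-46058714 on the plus strand and that of Gatm chr3:130129044-130129343 on the minus strand (RefSeq, GRCr8, which is a Brown Norway genome and neither strain studied). Of the 10 members 8 were in that table, all but Arg2 and Ddah2. Capitals mark matches, on either strand, to the E-box letters CACGTG, the cyclic AMP element core TGACGT, the TATA box letters TATAAA, the CCAAT box or the GC box core GGGCGG.
Odc1: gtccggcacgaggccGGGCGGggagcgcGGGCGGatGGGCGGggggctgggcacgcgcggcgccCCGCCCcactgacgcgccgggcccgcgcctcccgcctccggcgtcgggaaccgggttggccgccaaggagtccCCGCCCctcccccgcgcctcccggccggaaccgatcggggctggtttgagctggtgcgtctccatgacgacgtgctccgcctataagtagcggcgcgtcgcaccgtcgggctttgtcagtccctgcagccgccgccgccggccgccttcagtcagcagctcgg
Gatm: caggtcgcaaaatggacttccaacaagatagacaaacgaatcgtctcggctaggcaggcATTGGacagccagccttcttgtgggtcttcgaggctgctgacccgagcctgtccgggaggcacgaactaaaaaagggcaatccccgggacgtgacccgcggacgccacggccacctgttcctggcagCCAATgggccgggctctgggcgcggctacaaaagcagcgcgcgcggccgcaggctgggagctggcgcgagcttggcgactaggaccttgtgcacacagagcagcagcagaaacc

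The Odc1 window held 5 matches to GGGCGG, none of which overlapped another. Of 33469 promoters of the same length 33.1% held at least 1 such match, and 2.34% held 5 or more. The Srm window also held 5, although Srm did not pass the test, and those of Ass1 and Ddah1 held none. Bases G and C made up 77.3% of the Odc1 window and 77.7% of that of Srm. The median was 62.0% over the 8 members and 51.7% over all promoters. How often promoters of like composition hold 5 matches was not examined. The Gatm window held no GC box match and a pair of matches to CCAAT, which 37.5% of all promoters held at least once. They began 64 and 191 bases upstream of the start, the latter on the reverse strand. The palindrome CACGTG was found in the Srm window alone among the 8 (6.42% of all promoters). TATAAA was found in that of Ass1 alone (14.2%) and TGACGT in none of the 8 (7.94% of all). The TATAAA match of Ass1 began 60 bases upstream of the start, on the reverse strand. Only exact letters were searched for, so that near matches, such as the tataag of the Odc1 window, were not counted. These are matches of letters in 1 window per gene, and strain differences in them were not examined.

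For clearance of methylarginines, RNA was measured for both Ddah genes. Ddah1, the main form in the renal tubule, gave 4796, 4574 and 4761 in Lewis and 4069, 4100 and 4139 in Dahl S. The strains did not overlap, the Dahl S arrays lay within a coefficient of variation of 0.846%, and the difference was -0.20 (SE 0.05, adjusted p = 0.018). The call was lost without Dahl S array 1 (-0.19), 2 (-0.20) or 3 (-0.20).

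Ddah2, the form associated with endothelium and immune cells, gave 260, 216 and 204 in Lewis and 207, 255 and 225 in Dahl S. The ranges lay over each other, with a difference of 0.02 (SE 0.12, adjusted p = 0.95, interval -0.24 to 0.27). The Ddah1 to Ddah2 ratio of deposited signals was 20.4, 22.2 and 24.2 in Lewis and 19.0, 14.8 and 17.9 in Dahl S, 1.30-fold lower in Dahl S (-0.38 on the log2 scale, and -0.21 from the quantile-normalized values). The corresponding ratio of Ass1 to Asl (its dimmer probe set) was 13.9, 9.18 and 10.2 in Lewis and 8.26, 8.96 and 8.49 in Dahl S, 1.28-fold lower; its log2 difference of -0.35 shrank to -0.18 without Lewis array 1 and was -0.10 from the quantile-normalized values.

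**Figure D2:**
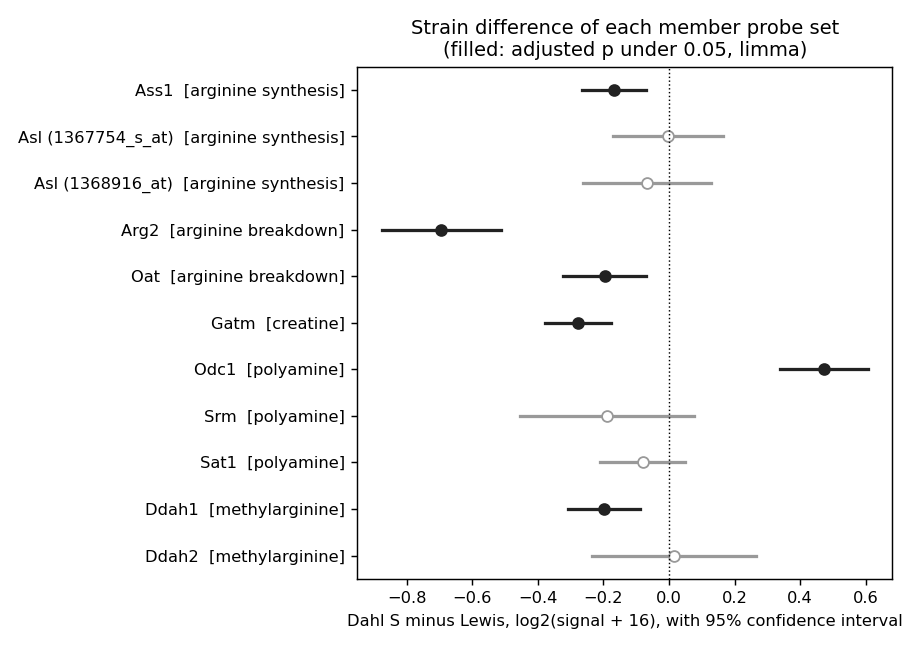
Strain difference (Dahl S minus Lewis, log2 scale) of each tested member probe set with its 95% confidence interval, in order of role; filled points have an adjusted p under 0.05 in limma. Arg2 lies farthest to the left at -0.70 and Odc1 farthest to the right at 0.47.

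The size of the smaller differences depended on how the arrays were scaled, most for the brightest probe sets. With each array scaled to a common median, Ass1 differed by -0.42 (quantile normalization gave -0.17), Gatm by -0.52, Oat by -0.37 and Ddah1 by -0.34, each a call. Odc1 differed by 0.34, also a call, and Arg2 by -0.68, so that Arg2 hardly moved. In the deposited values without scaling, where the typical probe set was 0.41 higher in Dahl S, Ass1 (0.016), Oat (0.067), Ddah1 (0.10), both Asl probe sets (0.36 and 0.39), Srm (0.23) and Sat1 (0.19) turned positive, Gatm (-0.087) and Arg2 (-0.26) stayed negative, and no member passed. With that setting 713 probe sets were called, 666 higher and 47 lower, and 3151 had an unadjusted p under 0.05. Each of these deposited differences except that of Odc1 (0.78) and of Ddah2 (0.44) lay below the shift of the typical probe set.

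**Figure D3:**
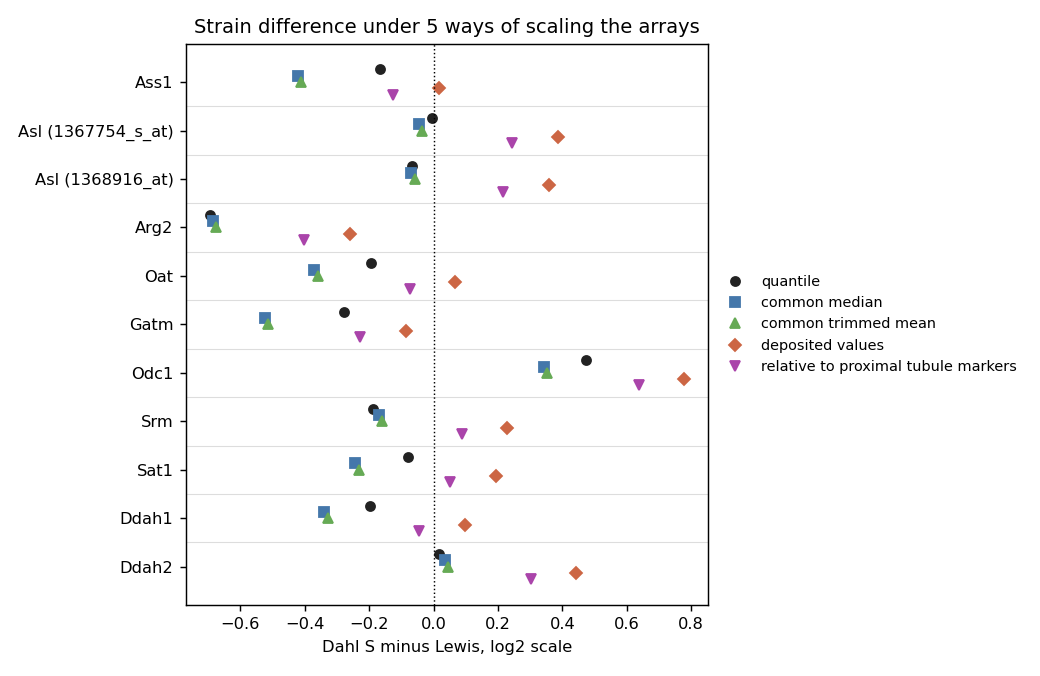
Strain difference (Dahl S minus Lewis, log2 scale) of each tested member probe set under 5 ways of setting the arrays' scale, 1 symbol for each. Arg2 is negative and Odc1 positive under each of them, while Ass1, Oat and Ddah1 are negative under quantile, common median and common trimmed mean scaling and positive in the deposited values.

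Ass1, Asl, Gatm, Arg2 and Ddah1 are genes of the proximal tubule, and some markers of that tubule were also lower. Of 14 proximal tubule markers 0 were higher, 6 lower (Slc5a12, Slc22a6, Slc22a8, Pck1, Fbp1 and Aqp1) and 8 did not pass, with a median of -0.14. The summed signal of the 14 ran from 63933 to 66038 in Lewis and from 57020 to 58222 in Dahl S. Slc34a1 did not pass by its brighter probe set (-0.06), but its other probe set was lower (-0.62, limma adjusted p = 0.0022). Of 5 markers of the straight part of that tubule 3 were lower (median -0.36; sums of 12821 to 13633 in Lewis and of 10606 to 10868 in Dahl S). The tubular injury markers went the other way, with 6 of 6 higher (median 1.38; sums of 5937 to 6903 in Lewis and of 12993 to 13256 in Dahl S), as did macrophage and leukocyte markers, with 7 of 8 higher (sums of 1567 to 1708 in Lewis and of 2453 to 2503 in Dahl S). Smooth muscle and fibroblast markers were higher for 4 of 7 (median 0.62; sums of 2455 to 3115 in Lewis and of 4302 to 4409 in Dahl S) and erythrocyte markers for 3 of 4 (median 0.45; sums of 4073 to 5239 and of 5836 to 6364). Podocyte markers were lower for 2 of 4 (sums of 1818 to 1875 in Lewis and of 1411 to 1451 in Dahl S) and endothelial markers for 2 of 5 (sums of 2558 to 2797 and of 2210 to 2383). Collecting duct markers were higher for 1 of 6 and lower for 2 (median -0.23, sums of 8287 to 8873 in Lewis and of 8033 to 8118 in Dahl S). Of 4 markers of the thick limb and distal tubule 0 were called (median -0.05, sums of 18993 to 20247 and of 18680 to 19114). Over all genes tested 9.04% were called higher and 7.62% lower. No marker tested was at 0 on any array. In RNA of a whole tissue, fewer cells of a type and less RNA per cell cannot be told apart, and the part of these shifts in the members' differences was not tested. In the deposited values, with no quantile normalization, and set against the median of the 14 proximal tubule markers on the same array, Arg2 differed by -0.40, Gatm by -0.23, Ass1 by -0.12, Oat by -0.074, Ddah1 by -0.044 and Odc1 by 0.64, as values with no test.

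Other genes of the same pathways were taken from a list of 51, of which 47 were on the array with a symbol of their own and 34 passed the filter on low values. Of these 34 genes, 3 were called higher in Dahl S, 7 lower and 24 did not pass, with a median of -0.05. Of the genes counted as higher, Cps1 passed that filter only through the Dahl S arrays, so that its call is no support. Over all 9540 genes tested 9.04% were higher and 7.62% lower (16.7% in all). The strains' ranges did not overlap for 18 of the 34, against 35.1% of all genes. This list was also drawn up with earlier results known, so its counts are a description. Without any 1 Dahl S array, 0 of these genes were called higher and 3 lower.

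Creatine genes beyond Gatm were lower where they were called. Gamt, which methylates guanidinoacetate to creatine, gave 1138, 1018 and 1035 in Lewis and 869, 937 and 861 in Dahl S (-0.25, SE 0.08, adjusted p = 0.039). That call was lost with the replicate number as a block (adjusted p = 0.061) and held in 2 of 6 fits with 1 array left out (adjusted p from 0.034 to 0.71 over all alternatives). The creatine transporter gene Slc6a8 gave 2667, 2296 and 2377 in Lewis and 1870, 1970 and 1854 in Dahl S (-0.36, SE 0.07, adjusted p = 0.0037). Its other probe set gave -0.58 (adjusted p = 0.0016), and the call of the brighter probe set held with any 1 array left out. In the deposited values the brighter probe set gave -0.014, which was no call. The creatine kinase genes Ckb (0.25, SE 0.12) and Ckmt1 (0.04, SE 0.11) did not pass, and Ckm and Ckmt2 were too dim to be tested.

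Among other genes of agmatine, proline and ornithine metabolism, those called were lower by the probe set that stood for them. Agmat, named for agmatine ureohydrolase, gave 1787, 2010 and 1907 in Lewis and 1231, 1184 and 1165 in Dahl S, 1.58-fold lower (-0.66, SE 0.07, adjusted p = 3.7e-05). Of the proline and ornithine breakdown genes, Prodh2, a hydroxyproline dehydrogenase gene, fell by 0.39 on the log2 scale (SE 0.07), and Aldh4a1, which oxidizes the semialdehyde that Oat makes, by 0.24 (SE 0.06). The Aldh4a1 call was lost without any 1 Dahl S array (-0.26 to -0.21) and without a variance trend. Prodh (-0.17, SE 0.14) and Aldh18a1 (0.28, SE 0.12) did not pass. Slc25a15, the mitochondrial ornithine carrier, was lower by its brightest probe set (-0.27, SE 0.07, adjusted p = 0.028), but its other probe sets gave -0.48, 0.21, 0.21 and 0.17, none of them a call, so that its direction is uncertain. In the deposited values Prodh2 (0.030), Aldh4a1 (0.12), Gamt (0.16), Slc25a15 (0.14) and Slc7a9 (0.088) turned positive. Agmat (-0.29) stayed negative there but was not called.

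Beside Ass1 and Asl, the urea cycle genes Cps1, Otc, Arg1 and Nags and the nitric oxide synthase genes were dim. Cps1, carbamoyl phosphate synthetase, gave 35.1, 40.5 and 27.1 in Lewis and 65.6, 68.6 and 64.7 in Dahl S (0.72, SE 0.15, adjusted p = 0.0070). It passed the filter only through the Dahl S arrays, and the size of its difference was 0.98 with no pseudocount and 0.41 with one of 64. The liver arginase Arg1 gave 54.0, 43.4 and 38.0 in Lewis and 27.7, 32.0 and 23.6 in Dahl S, without overlap but under the filter. Otc lay at 0.766 to 2.06 on the 6 arrays, and Nos3, the endothelial synthase, at 23.5 to 49.6 with overlap; neither was tested, and Nos1 and Nos2 also lay under the filter.

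Transport of arginine into and out of the tubule cell is shared by several carriers. Slc7a1, a cationic amino acid transporter, rose, with signals of 103, 143 and 123 in Lewis and 187, 162 and 170 in Dahl S (0.45, SE 0.12, adjusted p = 0.027); its other tested probe set gave 0.36 (adjusted p = 0.046). The call held in 1 of 6 fits with an array left out (0.35 to 0.55). Slc7a9, the light chain of the apical cystine and basic amino acid transporter, fell by 0.29 (SE 0.08, adjusted p = 0.025), also a call that held in 1 of 6. Its heavy chain gene Slc3a1 (0.09, SE 0.04) lay at 11181 on all 3 Dahl S arrays after normalization and did not pass. Probe sets of the same rank get the same value from that normalization, so that the difference and SE of Slc3a1 follow from its rank. The deposited signals of Slc3a1 were 8230, 13377 and 10192 in Lewis and 11029, 11497 and 10654 in Dahl S. The basolateral Slc7a7 (-0.18, SE 0.07, limma adjusted p = 0.13) did not pass either.

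Of 12 further polyamine genes tested, 1 was called, against 16.7% of all genes. Eif5a, the translation factor that carries the spermidine-derived residue hypusine, gave 2216, 2468 and 2161 in Lewis and 2716, 2809 and 2674 in Dahl S (0.26, SE 0.07, adjusted p = 0.017), a call lost with common median (0.16) and trimmed mean (0.17) scaling, in the deposited values, without a filter (adjusted p = 0.0503), without a variance trend and without any 1 Dahl S array (adjusted p from 0.059 to 0.084; up to 0.27 over all alternatives). Amd1 (0.00, SE 0.07, interval -0.16 to 0.16), which supplies the aminopropyl donor, and the spermine synthase gene Sms (-0.03, SE 0.09) did not pass, and neither did the Odc1 antizyme genes Oaz1 (0.02, SE 0.07) and Oaz2 (-0.09, SE 0.10). Of 6 methylarginine genes tested, 0 were called by limma. They were the protein methyltransferase genes Prmt2, Prmt3, Prmt5, Prmt7 and Carm1 and the second route of clearance, Agxt2 (-0.05, SE 0.05). Prmt3 (0.51, SE 0.18) was the 1 with an unadjusted p under 0.05 in limma. Of the 8 genes listed for this role, Prmt1 had no probe set with a symbol of its own, and Prmt6 lay under the filter.

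**Figure D4:**
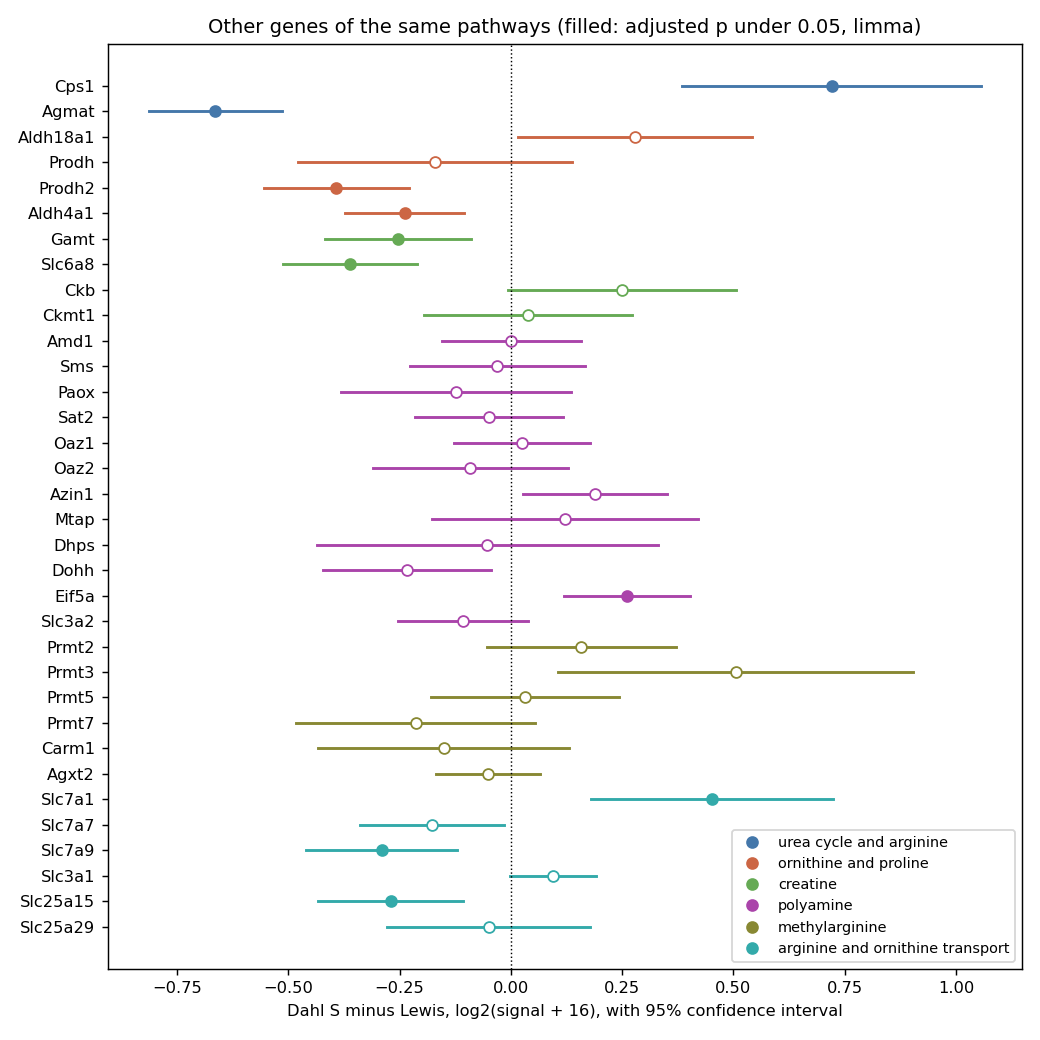
Strain difference (Dahl S minus Lewis, log2 scale) with 95% confidence interval for the 34 tested genes of the wider list, coloured by role; filled points have an adjusted p under 0.05 in limma. Eif5a is the only filled point among the polyamine and methylarginine genes, of which Prmt3 lies farthest from 0 at 0.51, while Agmat, Prodh2, Aldh4a1, Gamt, Slc6a8, Slc7a9 and Slc25a15 are filled on the left.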

How the data were processed

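Per the labels, the authors computed 1 intensity per probe set and array with GeneChip Operating Software version 1.4; the deposited intensity values are linear, and the labels do not state how they were scaled. Each sample's strain and number came from its title. The members and gene lists were chosen with earlier results of these data known.

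After 57 control probe sets were set aside, log2(intensity + 16) was quantile-normalized. The 15797 probe sets with 3 or more of 6 values above the overall median were tested with limma 3.58.1 in R 4.3.3 (two-sided, variance trend, Benjamini-Hochberg). Intervals are 95% moderated limits, SE those of limma. Gene symbols were updated through gene identifiers to RefSeq (GRCr8), which matched 20764 of 21268 annotated probe sets. The brightest tested probe set stood for a gene in counts by gene.

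All probe sets of the members are given, and of the wider list each called gene and a few named by rule; others are named after their values were seen. Probe letters that differ between strains were not masked. The fit was tested on simulated data: of changes of 0.5, 1 and 2 log2 it recovered 34.3%, 86.6% and 95.5% of 67, 67 and 66. In that simulation 145 of 15661 probe sets were called, against 2567 of 15797 in the data. The adjusted p is stricter where fewer probe sets change, so these shares do not give the recovery in the data. The number of arrays limits the precision. Alternatives were other scalings, pseudocounts, filters and variance models, a replicate block and leaving out each array.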

Additional observations from a re-analysis of the deposited data

How the results depend on the processing

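Arg2, Gatm and Odc1 kept direction and call under both linear scalings, other pseudocounts, both filters, no variance trend, the replicate block and each array left out, but not in the deposited values. There, 713 probe sets were called and 0 members in either direction, with differences of 0.016 for Ass1, 0.36 and 0.39 for Asl, -0.26 for Arg2, 0.067 for Oat, -0.087 for Gatm, 0.78 for Odc1, 0.23 for Srm, 0.19 for Sat1 and 0.10 for Ddah1; of the wider list 1 gene was called higher and 0 lower, and Prodh2 (0.030), Aldh4a1 (0.12), Gamt (0.16), Slc7a9 (0.088) and Slc25a15 (0.14) changed sign. Ass1 (-0.17), Oat (-0.20) and Ddah1 (-0.20) lost their calls without a filter, where more probe sets were tested, and without a variance trend; either left 2 members lower, and 1 wider gene higher (no filter) or 3 lower (no trend). The cause of the latter was not tested.

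With 1 array left out, 1373 to 2678 probe sets were called (2567 with all), 1 member was higher and 2 to 5 lower, and 0 to 4 wider genes were higher and 3 to 8 lower. The differences ran from -0.19 to -0.15 for Ass1, -0.054 to 0.042 and -0.12 to 0.013 for Asl, -0.23 to -0.14 for Oat, -0.22 to -0.18 for Ddah1 and -0.061 to 0.11 for Ddah2. Against the proximal tubule markers, an alternative chosen after seeing the data, they were -0.12 for Ass1, 0.24 and 0.22 for Asl, -0.40 for Arg2, -0.074 for Oat, -0.23 for Gatm, 0.64 for Odc1, 0.088 for Srm, 0.052 for Sat1, -0.044 for Ddah1 and 0.30 for Ddah2.

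The labels do not say whether a replicate number marks a pair of rats or a shared batch. Deviations from the strain means correlated by -0.05, -0.10 and 0.11 for numbers 1, 2 and 3, and not every array was closest to its own number. With 3 arrays per strain these values cannot settle whether the numbers pair the rats. With the replicate number as a block 2494 probe sets were called, and no call among the members changed. The samples are few and without low-salt controls, and dim genes have no detection calls here.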

Other observations

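Aoc1, the diamine oxidase gene that breaks down putrescine, lay under the filter on low values and was not tested; its normalized signals were 4.46, 12.6 and 7.93 on the Lewis arrays and 21.5, 30.1 and 29.6 on the Dahl S arrays, without overlap. The antizyme inhibitor gene Azin1, which frees Odc1 from antizyme, gave 0.19 (SE 0.07) by its brightest probe set and -0.11 (SE 0.08) by another, neither a call. Aldh18a1, which starts ornithine and proline synthesis from glutamate, gave 0.28 (SE 0.12) without overlap of the strains, and Dohh, which completes hypusine, -0.23 (SE 0.09) without overlap; neither passed the test.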
